A study of Mus musculus with 9 samples.

Results

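The comparison described here sets CT26 cells carrying the K262Q form of Pd-l1 against CT26 cells carrying wild-type Pd-l1, across every gene whose FPKM averaged 1 or more over the series' 9 libraries. That rule kept 12212 of the 53796 genes in the deposited table. CT26 is a mouse colorectal carcinoma cell line. In all 9 samples the cells' own Pd-l1 gene had been knocked out, and the cells were then infected with retrovirus and selected with puromycin into stable polyclonal lines. The 3 WT samples re-express wild-type mouse Pd-l1, the 3 K262Q samples re-express the mutant, and the 3 KO samples, given here beside the contrast, received a control vector. Each genotype is therefore 1 polyclonal line, grown in culture without other cells. The labels do not say whether the 3 samples of a line were cultured apart. The p-values below therefore rest on a spread between samples that may be technical, and a difference between the lines cannot be told apart from a difference between the Pd-l1 forms they carry.

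Pd-l1, encoded by Cd274, is a membrane protein whose outer part binds the PD-1 receptor of T cells and restrains them. Its short cytoplasmic tail has no enzyme activity, and its lysines can be modified after translation. Glutamine in place of lysine removes the positive charge and is often used to imitate an acetylated lysine. In the GRCm38 reference, the lysine codon that K262Q replaces lies in exon 5 of Cd274, in a protein of 290 residues (chromosome 19, 29382580 to 29382582, plus strand). It is shown with 30 coding bases on each side, because the substitution is the only intended difference between the lines; capitals mark the codon, which stands at the inner end of the tail next to the membrane-spanning segment.
Cd274 K262 codon: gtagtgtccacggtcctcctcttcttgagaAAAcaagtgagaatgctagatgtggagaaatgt
The bases of the vector that encode glutamine were not analysed here.

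Both lines expressed the Cd274 transcript at a similar level. The FPKM, a fragment count divided by transcript length and library size, was 35.6, 35.4 and 38.0 in WT replicates 1, 2 and 3 and 37.6, 41.3 and 40.1 in K262Q replicates 1, 2 and 3. These ranges overlap, while KO libraries measured 0.982, 0.357 and 0.791, so the transcript matches the labels. On the log2(FPKM + 1) scale, used for every difference below and always given as K262Q minus WT, Cd274 differed by 0.12 ± 0.13 (SE, limma, Benjamini-Hochberg adjusted p = 0.575), with a 95% interval from -0.17 to 0.42. The transcript comes from the vector, and protein was not measured here.

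Steps between low FPKM values implied 19260000 to 20410000 fragments per library. The labelled cell type was checked against its markers. Of 20 epithelial genes, 3 reached a mean of 1 FPKM, namely Krt18, Krt20 and Tjp1; the epithelial adhesion genes Epcam and Cdh1 were at most 0.055 and 0 FPKM in any library. The mesenchymal filament gene Vim reached 3337 FPKM. The defining epithelial genes of a carcinoma were thus at or near 0 in every library. Of 12 leukocyte markers only Cd68 and Cd14 reached 1 FPKM, and the defining leukocyte gene Ptprc was at most 0.023 FPKM. The summed leukocyte list ran from 51.1 to 54.9 FPKM in WT and from 59.7 to 61.4 FPKM in K262Q, nearly all of it Cd14, which rose by 0.22 (adjusted p = 0.0471) and was called under 0 of the 4 rescalings described next. In bulk RNA, fewer cells that express a gene and less RNA per cell cannot be told apart.

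Across the transcriptome, 1145 of 12212 genes (9.38%) differed between K262Q and WT (limma, adjusted p under 0.05). Of these 776 were higher in K262Q (6.35% of tested genes) and 369 were lower (3.02%). The direction of the total depends on scaling: 67.8% of calls were higher with FPKM as deposited, 56.4% after TMM scaling, 43.4% after upper-quartile scaling, 38.9% after scaling to the total of loci of at least 200 nt and 35.7% after scaling to the total of genes spanning at least 200 nt. These scalings moved the median difference of all tested genes from 0.029 to values between -0.047 and 0. Genes spanning under 200 nt took 28.2% to 29.4% of the FPKM of WT libraries and 29.5% to 31.1% of K262Q libraries; their part in the result was not tested. The 4 rescalings and the deposited scale shared 672 calls in the same direction, 314 higher and 358 lower.

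With FPKM as deposited, level and direction of the calls went together. The values in this paragraph were not recomputed under the rescalings. Among genes averaging 100 FPKM or more, 18.4% were called higher in K262Q and 1.4% lower, whereas among genes of 2 to 5 FPKM the shares were 1.2% and 2.7%. The median mean level was 43.0 FPKM for genes called higher and 14.1 FPKM for genes called lower, against 14.7 FPKM for all tested genes. Protein-coding genes called lower were also longer in the genome, with a median span of 28.7 kb against 14.7 kb for those called higher and 23.7 kb for all. Sizes were the opposite way round: of calls of at least 2-fold, 15 were higher and 24 lower, and of calls of at least 1.5-fold, 47 were higher and 95 lower.

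**Figure D1:**
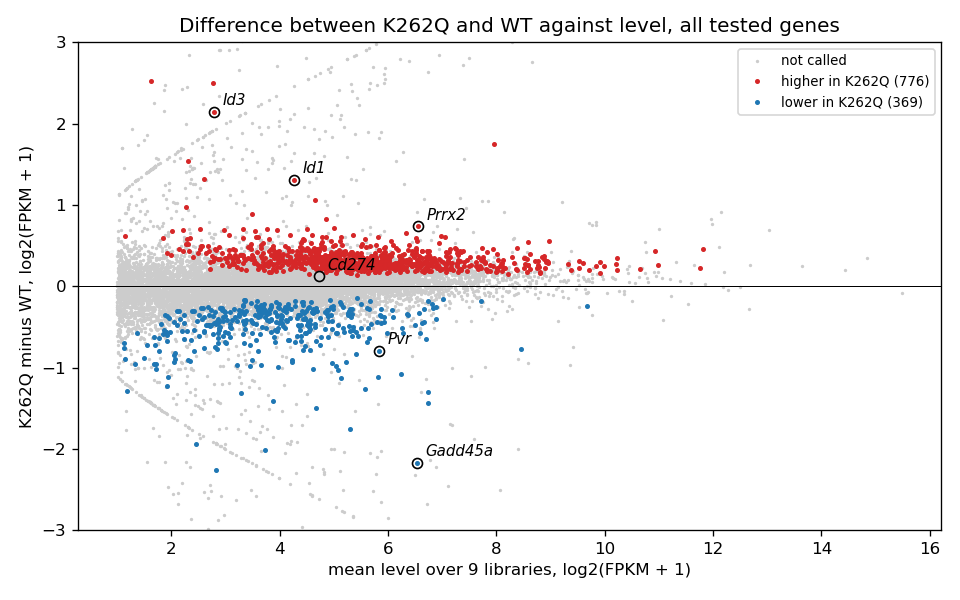
Difference between K262Q and WT on the log2(FPKM + 1) scale (y axis) against the mean level over 9 libraries (x axis) for the tested genes, with genes called higher in K262Q in red, genes called lower in blue and the others in grey. Most red points lie to the right, at small differences, and the larger falls such as Gadd45a lie at middle levels; 73 genes beyond a difference of 3 in either direction are outside the plot.

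How many genes were called depended on single libraries. Leaving out K262Q replicate 2 or 3 gave 29 or 41 calls, and leaving out WT replicate 2 or 1 gave 44 or 49. Leaving out K262Q replicate 1 gave 333 calls, WT replicate 3 gave 371 and KO replicate 1 gave 718. The count rose to 1597 without KO replicate 2 and to 1191 without KO replicate 3. Only 18 genes were called in the same direction in each of the 9 fits that leave out 1 library, 9 higher and 9 lower. Of these, 13 are described next; all 13 were also called under each of the 4 rescalings.

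Among kept genes with a name of their own, inhibitors of basic helix-loop-helix (bHLH) transcription factors gave the largest rises. Id proteins have a helix-loop-helix but no DNA-binding region, so they hold bHLH partners off DNA; they are classic targets of BMP signalling and are known for keeping cells proliferating and undifferentiated. Id3 measured 1.93, 2.43 and 2.07 FPKM in WT replicates 1, 2 and 3 and 9.82, 14.2 and 15.2 FPKM in K262Q, with 3.32, 2.68 and 1.79 FPKM in KO. Every K262Q library was above every WT and KO library, and the difference was 2.14 ± 0.20 (SE, limma, adjusted p = 0.00691). Id1 measured 11.7, 10.98 and 13.00 FPKM in WT, 26.2, 32.2 and 34.7 FPKM in K262Q, and 12.35, 12.8 and 10.7 FPKM in KO. Its KO and WT values overlapped and its K262Q values stood above both, with a difference of 1.31 ± 0.11 (adjusted p = 0.00522). Id2 ran alongside, from 14.7 to 18.8 FPKM in WT and from 33.6 to 39.0 FPKM in K262Q (1.07 ± 0.12, adjusted p = 0.0105), and kept its call in 7 of the 9 fits. Thus 3 of 3 tested Id genes rose, against 6.35% of all tested genes, and Id4 was below 1 FPKM. Id1 and Id3 were given with the contrast, so this count was partly fixed in advance.

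The bHLH partners of the Id proteins showed no such common shift. Among 9 tested members of that list, 1 rose and 1 fell (6.35% and 3.02% of all tested genes), with a median of 0.06 against 0.029 for all tested genes. Under each of the 4 rescalings, 1 rose and 2 fell. An unadjusted p under 0.05 (limma) was seen in 5 of the 9, against 27.9% of all tested genes. Twist2, a bHLH repressor of mesenchymal differentiation, measured 47.5, 48.6 and 51.5 FPKM in WT against 66.9, 67.8 and 67.7 FPKM in K262Q, a difference of 0.45 ± 0.04 (adjusted p = 0.00522) that was kept in all 9 fits. Bhlhe40, a bHLH repressor of the clock and stress responses, fell by 0.33 (adjusted p = 0.0290). The E protein gene Tcf4 measured 29.5 to 31.8 FPKM in WT against 19.6 to 26.3 FPKM in K262Q without passing the threshold (adjusted p = 0.055), and Tcf3 and Tcf12 did not pass either (adjusted p = 0.145 and 0.432).

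Components of the BMP pathway, which acts through type I and type II receptors and SMADs 1, 5 and 9, gave few calls. Of 22 tested ligands, receptors, SMADs and inhibitors, 0 rose and 1 fell, the secreted activin inhibitor Fstl3 by 0.26 (limma, adjusted p = 0.0247); 5 of these 22 had an unadjusted p under 0.05, against 27.9% of all tested genes. The type I receptor Acvrl1 had the highest estimate, 10.4 against 6.52 FPKM, and did not pass (adjusted p = 0.0796). Smad1 differed by -0.02 and Smad5 by 0.09 (adjusted p = 0.886 and 0.532). In the TGF-beta list, 1 of 17 rose and 3 fell, against 6.35% and 3.02% of all tested genes. The falls were Skil, a SMAD co-repressor, by 0.52, the ligand Tgfb3 by 0.41 and the homeodomain repressor Tgif1 by 0.44. Skp2, an F-box protein that targets cell cycle inhibitors, rose by 0.54.

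Homeobox and other developmental genes moved one by one, where 6.35% of all tested genes rose and 3.02% fell. Prrx2, a paired-related homeobox factor of mesenchyme, measured 70.6, 75.5 and 76.4 FPKM in WT, 116.5, 126.2 and 129.9 FPKM in K262Q and 78.9, 85.9 and 76.98 FPKM in KO. The K262Q values stood apart from the rest, by 0.74 ± 0.06 (adjusted p = 0.00522). Its close relative Prrx1 fell by 0.15 (adjusted p = 0.0477), and among the other 23 tested homeobox genes Hoxb9 fell by 0.84 and Hoxc6 by 0.37, so that 1 rose and 3 fell of 25, with a median of 0.01 that was -0.07 after scaling to genes spanning at least 200 nt. Dlk2, a membrane protein related to Notch ligands, rose from 2.38, 3.08 and 2.05 to 5.21, 6.48 and 5.82 FPKM (0.97 ± 0.13, adjusted p = 0.016) and was the single call among 8 tested genes of the Notch list.

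Among genes with a name of their own, the other rises kept in every fit were of similar size to that of Twist2, between 0.32 and 0.48. Fzr1, an activator of the anaphase-promoting complex, measured 20.2, 20.3 and 20.4 FPKM in WT against 27.4, 29.7 and 28.8 FPKM in K262Q (0.48 ± 0.04, adjusted p = 0.00522). Gclm, the modifier subunit of the ligase that starts glutathione synthesis, went from 179.4, 190.0 and 177.4 to 245.9, 257.3 and 253.9 FPKM (0.47 ± 0.04, adjusted p = 0.00633). In both genes the lowest K262Q library was above the highest WT and KO library. Gpr89, a Golgi ion channel, rose by 0.47 ± 0.05 and Gspt1, the translation release factor eRF3a, by 0.32 ± 0.03 (adjusted p = 0.0105 for each).

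Falls kept in every fit included an extracellular matrix and a lipid droplet gene. Thbs2, the matrix protein thrombospondin 2, measured 35.2, 36.0 and 39.9 FPKM in WT, 19.3, 18.6 and 18.3 FPKM in K262Q and 35.8, 29.7 and 38.3 FPKM in KO (-0.95 ± 0.09, adjusted p = 0.00943). Prune2 measured 3.88, 4.33 and 4.57 FPKM in WT against 1.57, 1.96 and 1.74 FPKM in K262Q (-0.93 ± 0.10, adjusted p = 0.0101). For both genes the K262Q libraries lay below every KO library as well. Plin2, which coats lipid droplets, fell from 87.1, 84.4 and 91.8 to 57.7, 60.7 and 56.8 FPKM (-0.58 ± 0.06, adjusted p = 0.0105), again below the lowest KO value of 77.5 FPKM.

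In Dkk2 and Myo9a the KO values lay between the other lines. Dkk2, a secreted Wnt inhibitor, measured 14.1, 13.9 and 14.05 FPKM in WT, 8.92, 9.05 and 9.09 FPKM in K262Q and between 10.7 and 12.2 FPKM in KO (-0.58 ± 0.05, adjusted p = 0.00522). Myo9a, an unconventional myosin, measured 17.1 to 17.7 FPKM in WT, 12.1 to 13.2 FPKM in K262Q and 14.4 to 14.8 FPKM in KO (-0.45 ± 0.05, adjusted p = 0.00943).

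**Figure D2:**
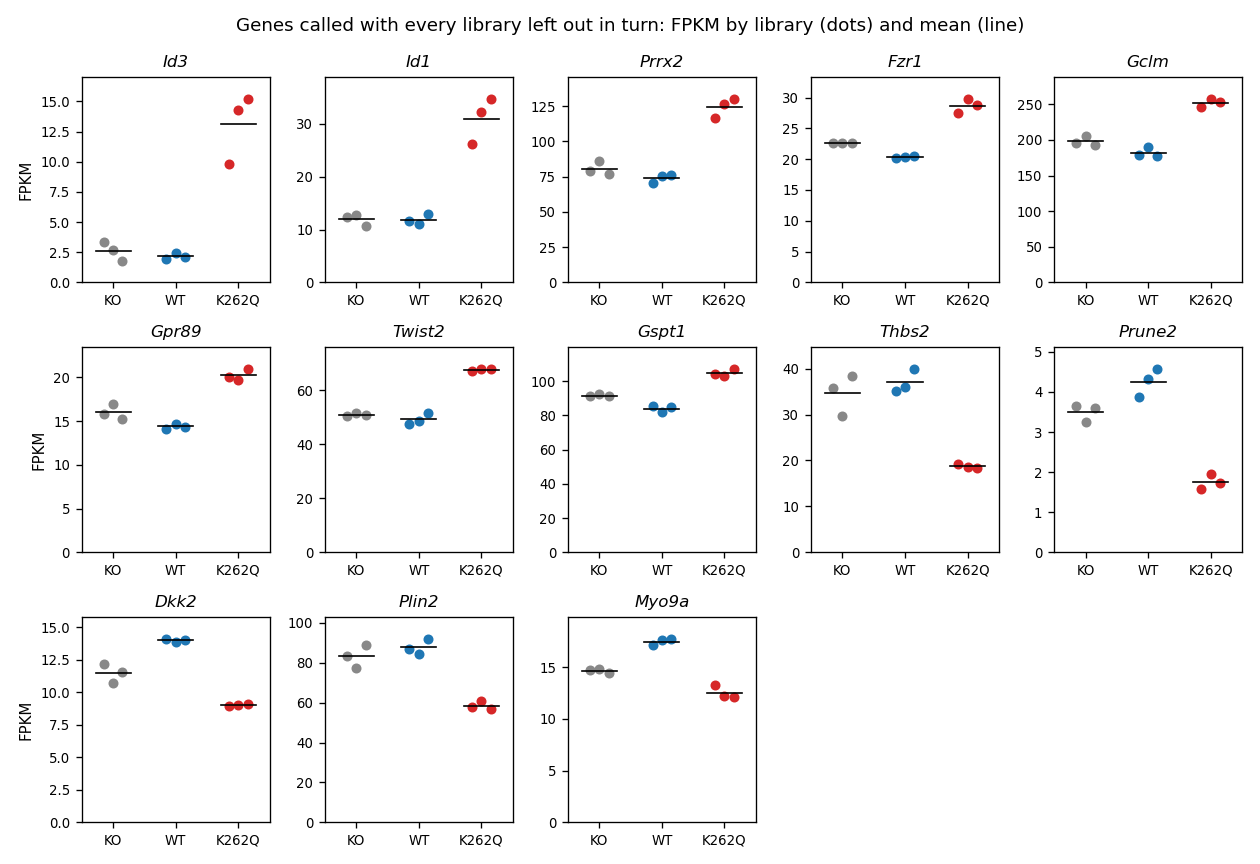
FPKM (y axis, from 0) of 13 genes called in each of the 9 fits that leave out 1 library, with dots for KO (grey), WT (blue) and K262Q (red) replicates 1 to 3 and a line at the group mean. The 3 red dots are apart from the 3 blue dots in every panel, which was a condition for choosing these genes. K262Q and WT values were apart in 35.4% of all tested genes. The grey dots of Dkk2, at 10.7 to 12.2 FPKM, lie between its red and blue dots.

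Among called genes with a name of their own and at least 2 FPKM in the higher line, the 15 largest falls ranged from 2.17 for Gadd45a to 0.99 for Rusc2, and several of these genes also varied widely within the KO line. Gadd45a, a p53 and stress target that halts the cell cycle, measured 152.7, 100.9 and 138.5 FPKM in WT against 29.0, 24.3 and 30.5 FPKM in K262Q (-2.17 ± 0.52, adjusted p = 0.0432). KO libraries measured 126.8, 38.0 and 190.2 FPKM, so that KO replicate 2 was near the K262Q values. Arid5a, which stabilises inflammatory mRNAs, went from 34.1, 26.0 and 35.4 to 11.6, 9.60 and 10.4 FPKM (-1.50 ± 0.37, adjusted p = 0.0473), with 14.2 FPKM in KO replicate 2 and 33.7 and 46.7 FPKM in the other KO libraries. Txnip, the thioredoxin inhibitor induced by glucose through MondoA, went from 159.1, 126.3 and 138.5 to 59.3, 51.4 and 59.4 FPKM (-1.30 ± 0.28, adjusted p = 0.0367), with 66.8 FPKM in KO replicate 2. Gadd45a, Arid5a, Txnip, Egr1, Trib3, Apobec1, Snai2 and Rusc2 were each called in only 2 of the 9 fits that leave out 1 library. The others of the 15 were called in 3 to 6 of them. Arid5a and Snai2 were called under 2 of the 4 rescalings. Of the 15 largest falls, 13 had KO replicate 2 nearer to the K262Q mean than to the WT mean, and 0 had KO replicate 1 or 3 there. The highest KO library was 1.33 to 5.01 times the lowest in these 15 genes. It was 1.03 to 1.29 times the lowest in the falls kept in every fit that have a gene name of their own. Kept models without such a name are outside this comparison. The variance estimate includes the KO libraries, so being kept in every fit itself favours genes with little KO spread. Whatever sets KO replicate 2 apart was not tested.

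In the genes that follow, themselves chosen for their low K262Q values, the K262Q libraries also lay below every KO library. Car9, a membrane carbonic anhydrase induced by hypoxia, measured 9.39, 18.3 and 19.1 FPKM in WT, 3.82, 4.24 and 1.44 FPKM in K262Q and 13.6 to 22.1 FPKM in KO (-2.01 ± 0.37, adjusted p = 0.0241). Tnfrsf9, the costimulatory receptor 4-1BB, measured 2.90, 4.72 and 4.51 FPKM in WT, 1.22, 1.22 and 0.958 FPKM in K262Q and 2.73 to 4.20 FPKM in KO (-1.22 ± 0.19, adjusted p = 0.0179). Ndrg1, a stress and hypoxia gene, measured 82.7, 92.1 and 112.2 FPKM in WT, 47.0, 43.9 and 42.0 FPKM in K262Q and 69.8 to 92.8 FPKM in KO (-1.08 ± 0.13, adjusted p = 0.016). Ccng2, an atypical cyclin of arrested cells, fell by 1.02 ± 0.20 and Apobec1, a cytidine deaminase, by 1.03 ± 0.24 (adjusted p = 0.027 and 0.0417). In Egr1, an immediate early factor, the values met: KO replicate 2 (16.1 FPKM) fell inside the K262Q range of 15.4 to 18.1 FPKM.

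**Figure D3:**
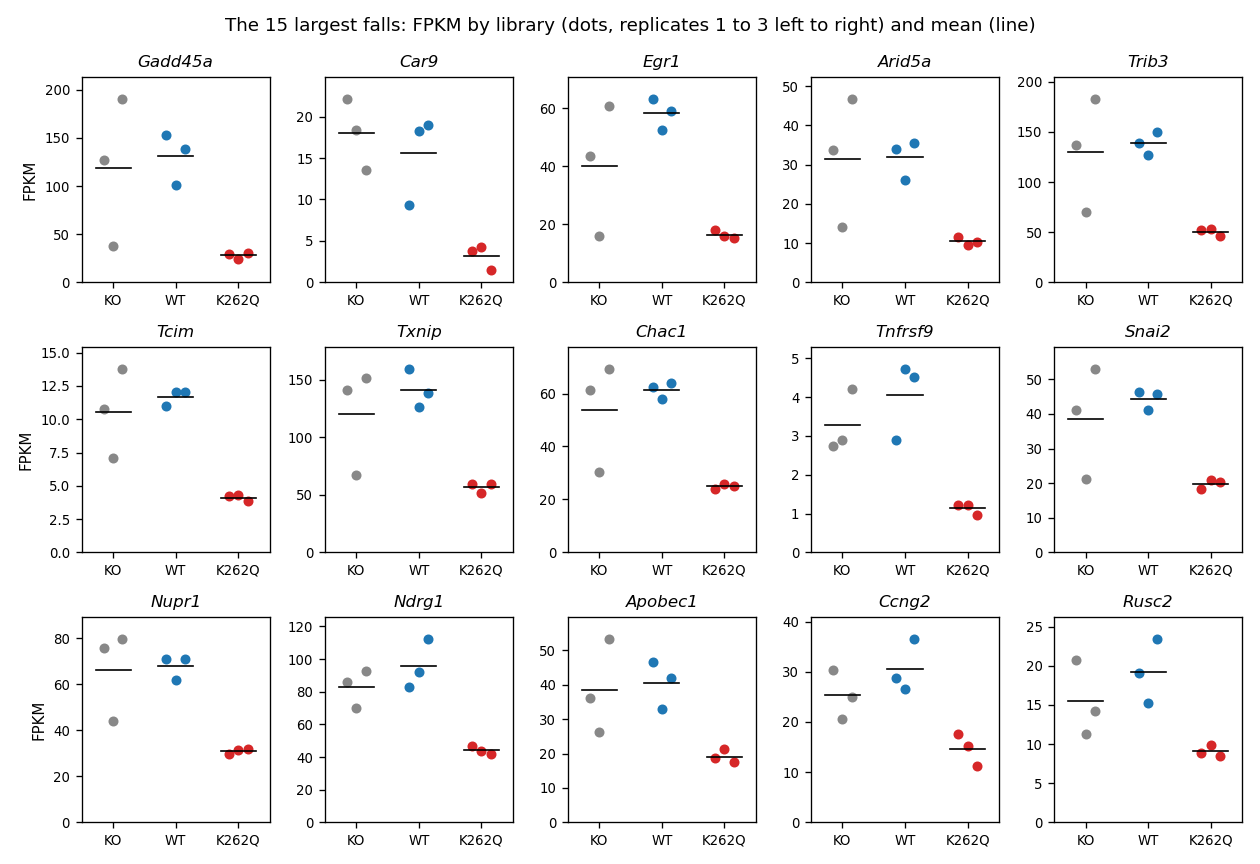
FPKM (y axis, from 0) of the 15 genes with the largest falls, with dots for KO (grey), WT (blue) and K262Q (red) replicates 1, 2 and 3 from left to right and a line at the group mean. The middle grey dot, KO replicate 2, lies nearer to the red mean than to the blue mean in 13 of the 15 panels, the other two being Car9 and Tnfrsf9.

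By groups, HIF targets outside glycolysis had falls and no rises. HIF is the transcription factor that accumulates when oxygen is low. Of 18 tested targets, 7 fell and 0 rose, and the estimate was below 0 for each of the 18, with a median of -0.32; among all tested genes 3.02% fell. Ero1l, an oxidase of the endoplasmic reticulum, measured 362.7, 393.7 and 440.3 FPKM in WT against 225.9, 250.4 and 219.7 FPKM in K262Q (-0.78 ± 0.10, adjusted p = 0.016). Vegfa, the angiogenic factor, fell by 0.64, the mitophagy receptor Bnip3 by 0.78 and P4ha2, a collagen prolyl hydroxylase, by 0.58 (adjusted p = 0.0224, 0.024 and 0.0216). The glycolytic enzymes, many of which HIF also induces, are a separate list, whose difference from the former was not tested: 1 of 19 fell, enolase 2 (Eno2, 0.57), and their median was -0.04; after scaling to genes spanning at least 200 nt, 4 fell. Across fits with 1 library left out the HIF list's median stayed between -0.40 and -0.25, while the number of members called lower ran from 0 to 8. After scaling to genes spanning at least 200 nt, 13 of the 18 fell.

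The core letters ACGTG, to which HIF binds, were looked for on both strands in the 250 bases upstream of a RefSeq start site (GRCm38.p6). They occurred in 8 of the 14 HIF-list promoters at hand and in 22.7% of the promoters of 8370 tested genes. Of the 3 called members with the smallest adjusted p, P4ha2 had a promoter in the table (chr11:54100674-54100923, plus strand), 829 bases from the GENCODE gene start and shown with its match in capitals; ACGTG is also part of the E-box CACGTG.
P4ha2: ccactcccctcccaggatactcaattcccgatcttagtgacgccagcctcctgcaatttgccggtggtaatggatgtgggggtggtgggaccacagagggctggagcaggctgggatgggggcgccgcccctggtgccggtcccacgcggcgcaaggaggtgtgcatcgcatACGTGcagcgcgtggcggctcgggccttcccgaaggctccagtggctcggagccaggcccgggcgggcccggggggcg

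Targets of ATF4, the factor of the amino acid and unfolded protein stress response, had the lowest median of the lists (-0.52). Of 15 tested members, 7 fell and 0 rose, against 3.02% and 6.35% of all tested genes. With 1 library left out, the number of members called lower ran from 0 to 11. Trib3, a pseudokinase that restrains ATF4 and AKT, measured at least 126.8 FPKM in WT against at most 53.3 FPKM in K262Q (-1.44 ± 0.30, adjusted p = 0.0323), and KO replicate 2 was again low at 70.5 FPKM against 136.5 and 182.6 FPKM. Nupr1, a stress-induced chromatin protein, fell by 1.11, and Chac1, which breaks down glutathione, by 1.27 (adjusted p = 0.0247 and 0.033). Ddit3, the CHOP factor, had 112.1 to 143.3 FPKM in WT against 48.2 to 52.9 FPKM in K262Q but missed the threshold (adjusted p = 0.0517), and Atf4 itself differed by -0.10 (adjusted p = 0.325). Calls were mixed in lists of enzymes and transporters, of which ATF4 drives only some members. Of 11 amino acid transporters, the cystine carrier Slc7a11 fell by 0.69 and the taurine carrier Slc6a6 rose by 0.42. The transporters' median was -0.28, with 2 of the 11 estimates above 0. An unadjusted p under 0.05 (limma) was seen in 8 of the 11, against 27.9% of all tested genes. After scaling to genes spanning at least 200 nt, 3 transporters fell and 1 rose. Of 20 cytosolic tRNA synthetases 3 rose and 0 fell, against 1 and 2 after that scaling. Of 16 serine and one-carbon enzymes 4 rose and 1 fell, with a median of 0.06 that was -0.03 after the same scaling. Shmt1, the cytosolic serine hydroxymethyltransferase, went from 21.0, 28.1 and 23.2 to 38.7, 43.7 and 37.5 FPKM (0.71 ± 0.10, adjusted p = 0.0171), and the mitochondrial Aldh1l2 fell by 0.53.

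The ATF4 element TGATGNAA (N, any base; both strands) occurred in 3 of 14 promoters of this list and in 1.7% of those of all 8370 genes. It is shown in Nupr1 (chr7:126625471-126625720, minus strand), in capitals, where it reads on the opposite strand; this RefSeq start lies 5391 bases from the GENCODE gene start.
Nupr1: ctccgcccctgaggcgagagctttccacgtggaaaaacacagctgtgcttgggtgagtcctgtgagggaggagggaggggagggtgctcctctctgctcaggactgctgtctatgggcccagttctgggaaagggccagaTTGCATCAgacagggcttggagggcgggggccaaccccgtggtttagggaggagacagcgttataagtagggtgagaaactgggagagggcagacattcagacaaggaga

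Enzymes of sterol synthesis rose along the pathway. SREBP2 is the membrane-bound factor that turns on this pathway when sterols in the endoplasmic reticulum run low. Of 18 tested enzymes, 13 rose, 0 fell and 5 did not pass, with a median of 0.38, against 6.35% of all tested genes rising. Acat2, which makes acetoacetyl-CoA, measured 21.3, 21.8 and 22.3 FPKM in WT against 31.9, 34.4 and 35.4 FPKM in K262Q (0.61 ± 0.08, adjusted p = 0.016). Hmgcs1 rose by 0.61, the squalene synthase Fdft1 by 0.55, and Hsd17b7, a late enzyme, by 0.70. Of 13 genes of sterol uptake and SREBP control, 5 rose, with the sterol carrier Stard4 at 0.44; after scaling to the total of genes spanning at least 200 nt only 1 of these rose and 1 fell. The cholesterol exporter Abca1 went the other way, from 8.003, 8.775 and 8.271 to 5.78, 5.78 and 5.81 FPKM (-0.46 ± 0.05, adjusted p = 0.0137), alone among 6 efflux genes. The sterol enzymes' median lay between 0.29 and 0.34 under the rescalings and between 0.35 and 0.41 with 1 library left out, but 0 to 14 members were called in the latter fits.

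The SREBP element TCACNCCAC was present in 1 of 14 sterol enzyme promoters and in 0.9% of all. The CCAAT box, bound by NF-Y, was present in 12 of 14 against 37.8% of all. Msmo1, a sterol demethylase that rose by 0.36, has 3 CCAAT boxes in 250 bases (chr8:64733579-64733828, minus strand), in capitals below.
Msmo1: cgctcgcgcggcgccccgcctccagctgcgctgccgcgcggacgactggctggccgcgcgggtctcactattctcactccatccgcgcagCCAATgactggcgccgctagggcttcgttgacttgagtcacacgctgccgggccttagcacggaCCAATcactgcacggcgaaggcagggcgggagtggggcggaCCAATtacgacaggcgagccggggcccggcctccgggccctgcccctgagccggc

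Some genes of cell division rose, by small amounts, while most members of the replication and mitotic lists did not pass; 6.35% of all tested genes rose. Of 37 DNA replication genes, 13 rose, 0 fell, and the estimate was above 0 in all 37, with a median of 0.21. Cdc6, which loads the replicative helicase, measured 6.85, 7.38 and 6.68 FPKM in WT against 11.6, 11.8 and 12.4 FPKM in K262Q (0.70 ± 0.13, adjusted p = 0.0259), and the helicase subunit Mcm5 rose by 0.37. Of 30 mitotic genes, 9 rose and 0 fell, with a median of 0.23; cyclin B1 (Ccnb1) went from 16.7, 18.1 and 16.1 to 24.8, 25.4 and 26.6 FPKM (0.57 ± 0.09, adjusted p = 0.018). Among 15 regulators of G1, Cdk4 rose by 0.25 and cyclin E1 (Ccne1) by 0.63, while the CDK inhibitor p27 (Cdkn1b) fell from 20.3, 21.3 and 21.4 to 16.6, 16.6 and 15.6 FPKM (-0.35 ± 0.04, adjusted p = 0.016). After scaling to the total of genes spanning at least 200 nt, 8 replication and 4 mitotic genes were called higher and 0 of either lower. In KO replicate 2, Cdc6 was 10.4 FPKM and Ccnb1 23.2 FPKM, above the other KO libraries and towards K262Q.

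Mitotic promoters often hold the CHR element TTTGAA and CCAAT boxes. TTTGAA was found in 8 of 25 mitotic promoters (10.2% of all) and CCAAT in 19 of 25 (37.8% of all). In Ccnb1 (chr13:100786487-100786736, minus strand) 2 CCAAT boxes stand in capitals and TTTGAA is not among these 250 bases.
Ccnb1: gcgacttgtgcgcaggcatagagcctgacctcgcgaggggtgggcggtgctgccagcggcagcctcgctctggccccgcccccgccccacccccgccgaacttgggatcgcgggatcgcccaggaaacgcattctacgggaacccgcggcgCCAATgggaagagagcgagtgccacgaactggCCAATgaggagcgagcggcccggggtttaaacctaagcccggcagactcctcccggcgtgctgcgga

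Among protein folding and protein synthesis genes, the share called higher was above the 6.35% of all tested genes in each list given here; it was 18.4% among all genes averaging 100 FPKM or more. In the list of endoplasmic reticulum (ER) chaperones and the unfolded protein response, 12 of 24 rose and 2 fell, with a median of 0.29. Creld2, an ER-stress-induced disulfide isomerase, measured 99.6, 100.8 and 108.0 FPKM in WT against 151.2, 158.4 and 163.1 FPKM in K262Q (0.61 ± 0.07, adjusted p = 0.0105) and kept its call in 8 of 9 fits. The 2 members that fell were stress sensors, not chaperones: Ern1, the IRE1 kinase, by 0.78 and Atf6 by 0.25. Of 16 heat shock genes 7 rose, of 8 subunits of the CCT chaperonin 5 rose (Cct3 by 0.42, adjusted p = 0.016), and 0 of either fell. After scaling to genes spanning at least 200 nt, 4 heat shock genes and 1 CCT subunit were called higher. Of 24 ribosome biogenesis genes 11 rose, of 23 mitochondrial ribosomal protein genes 7, of 25 proteasome subunits 8 and of 24 nuclear respiratory chain subunits 7, with medians of 0.25, 0.23, 0.21 and 0.16 and 0 falls. Under scaling to genes spanning at least 200 nt these 4 counts were 5, 4, 4 and 2, still with 0 falls. In each of these 4 lists at least 1 fit with a library left out called 0 members, and their medians stayed between 0.14 and 0.27.

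Of 24 NRF2 targets, which serve redox balance, 6 rose and 1 fell (6.35% and 3.02% of all tested genes), with Gclm, described above, the peroxiredoxin Prdx1 (0.36) and sulfiredoxin Srxn1 (0.38) higher. The one that fell, Slc7a11, is also a target of ATF4. The median was 0.18, and 0.09 after scaling to genes spanning at least 200 nt, which left 3 rises.

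Surface ligands and antigen presentation had more falls than rises, where 3.02% of all tested genes fell and 6.35% rose. Pvr, the poliovirus receptor and a ligand of the T cell and NK cell receptors TIGIT and CD226, measured 69.2, 63.9 and 69.9 FPKM in WT, 40.1, 36.7 and 38.5 FPKM in K262Q and 63.7, 51.7 and 70.4 FPKM in KO. Its K262Q values lay below every WT and KO value (-0.80 ± 0.11, adjusted p = 0.016), and the call was kept in 5 of the 9 fits. Nectin2, its close relative, was 11.7 to 13.4 FPKM in WT against 9.04 to 12.1 FPKM in K262Q, with overlap (adjusted p = 0.17). Among 6 tested checkpoint and costimulatory ligands Cd80, the ligand of CD28 and CTLA-4, fell by 0.66 (adjusted p = 0.0468). Of 19 genes of MHC class I presentation 4 fell and 1 rose: the light chain B2m went from 891.9, 858.6 and 867.0 to 725.5, 748.3 and 733.0 FPKM (-0.25 ± 0.04, adjusted p = 0.0176), the immunoproteasome subunit Psmb8 fell by 0.52 and the peptide transporter subunit Tap2 by 0.61, while the immunoproteasome subunit Psmb10 rose by 0.39. After scaling to genes spanning at least 200 nt, 8 of the 19 fell and 0 rose. With 1 library left out, 0 to 5 of the 19 were called lower and 0 to 2 higher.

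Interferon-stimulated genes leaned downward with few calls. Of 40 tested, 35 had an estimate below 0, with a median of -0.24. Of these 40, 4 fell and 1 rose, against 3.02% and 6.35% of all tested genes. Uba7, the activating enzyme of ISG15, fell by 0.76, and Ifit3 by 0.70, while the feedback inhibitor Socs1 rose from 3.48, 3.42 and 3.07 to 4.85, 4.95 and 4.66 FPKM (0.43 ± 0.07, adjusted p = 0.0193). Of 17 NF-kB genes 1 fell, the Tnfrsf9 described above, and 2 rose (Vcam1, 0.23, and Sod2, 0.29), rises that were not called under any of the 4 rescalings. Of 13 cytokine genes 0 were called by limma, with 2 at an unadjusted p under 0.05, against 27.9% of all tested genes.

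Matrix and EMT genes, and the immediate early genes, changed in single members, where 3.02% of all tested genes fell and 6.35% rose. Of 26 tested EMT and matrix genes 3 fell and 0 rose, with a median of -0.02: Snai2, the SLUG repressor, by 1.123, Zeb2 by 0.55 and fibronectin (Fn1) from 106.6, 105.2 and 114.6 to 76.6, 68.5 and 72.9 FPKM (-0.58 ± 0.08, adjusted p = 0.016). Of 24 immediate early and AP-1 genes 2 fell, Egr1 by 1.76 and Maff by 0.50, and 2 rose, Srf by 0.28 and Zfp36l2 by 0.24; after scaling to genes spanning at least 200 nt, 4 fell and 0 rose. Of 13 Kruppel-like factors 2 fell, Klf6 by 0.68 and Klf9 by 0.31, with a list median of -0.39. Of 21 p53 targets 5 rose and 3 fell: Trp53 itself (0.34), the exonuclease Aen (0.55) and Bax (0.31) were among those higher, and Gadd45a (-2.17) and Sesn2 (-0.69) were lower.

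**Figure D4:**
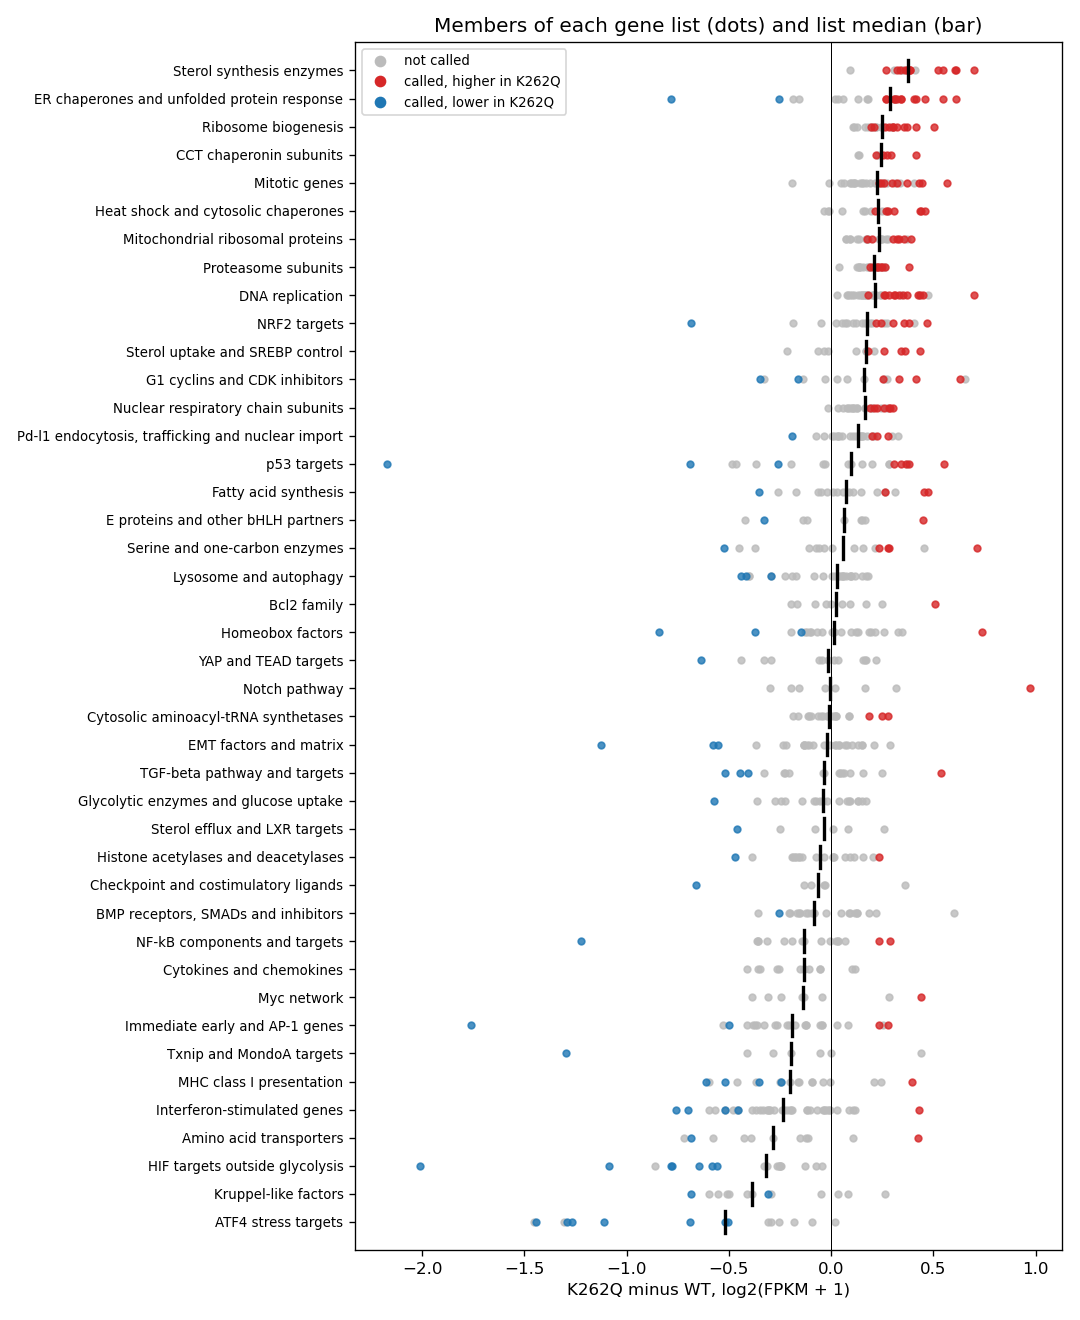
Difference between K262Q and WT on the log2(FPKM + 1) scale (x axis) for the members of each gene list drawn, all with at least 6 tested genes (rows, ordered by median), with called members in red (higher) or blue (lower), the others in grey, and a bar at the list median. Sterol synthesis enzymes stand at the top with a median of 0.38 and ATF4 stress targets at the bottom with -0.52.

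**Figure D5:**
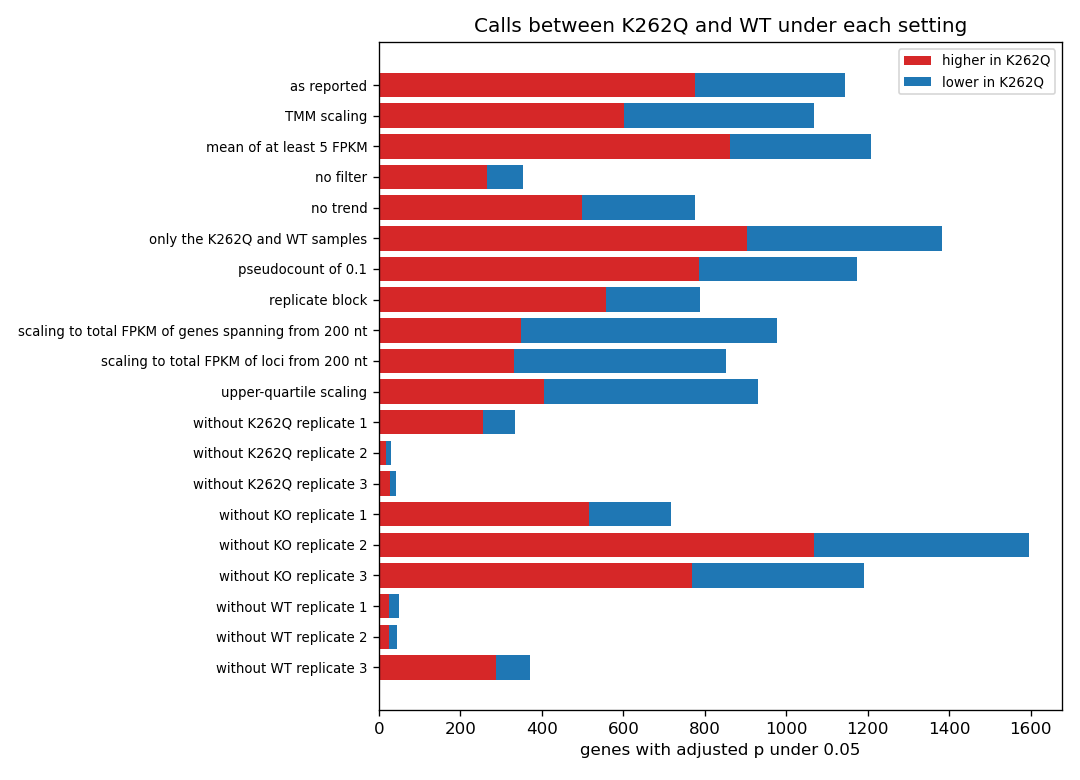
Number of genes with adjusted p under 0.05 (x axis, from 0) under each setting (rows), split into genes higher (red) and lower (blue) in K262Q. The bars of fits without K262Q replicate 2 or 3, or without WT replicate 1 or 2, shrink to 29 to 49 genes, and the red part is the smaller one under upper-quartile scaling and both scalings to a total.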

How the data were processed

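Per the submitters' processing notes, STAR 2.5.4a, Cufflinks 2.2.1 and Cuffdiff were used with mm10; the annotation release and strand are not given in the sources used here. The authors deposited 1 FPKM value per gene and sample, without counts. Steps between low values of 1947 single-transcript genes implied 19260000 to 20410000 fragments per library. At 1 FPKM a 2000 nt transcript then stands for 38.5 to 40.8 fragments, a counting SD of 15.7% to 16.1%, for counting error only. Positions and spans came from GENCODE M21 (GRCm38), matched by gene ID for 53702 genes, and promoters from RefSeq (GRCm38.p6), matched by symbol for 8370 of 12189 tested symbols.

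Values of log2(FPKM + 1) from the 9 samples, as 3 groups sharing one variance estimate, were modelled in limma 3.58.1 (R 4.3.3, eBayes, mean-variance trend), with two-sided tests and Benjamini-Hochberg adjustment over 12212 genes at 0.05. Folds understate changes of low genes, and an exact test of 3 against 3 cannot go below p = 0.1. The 50 gene lists (975 genes, 969 matched) and the members were chosen with earlier results of these data known. Lists are described by counts and medians without a test, and no list is independent evidence. Named genes are Cd274, Id1, Id3, Prrx2 and Pvr, the 15 largest rises and falls among called, non-overlapping genes of at least 2 FPKM in the higher group, with a name of their own and a locus of at least 200 nt, up to 10 each way kept in every leave-one-out fit, and up to 3 per list with the smallest adjusted p; others were named after their values were seen. In 5 simulated runs of all 12212 genes, 200 genes with a mean log2(FPKM + 1) above 2 were changed, with independent normal noise for each gene. The model called 24.4% of genes given a 1.25-fold change, 65.2% at 1.5-fold, 90.4% at 2-fold and 93.2% at 3-fold, and 6.6% of its calls were false. The recovery shares do not cover genes of lower level, and the simulation held no noise shared between genes. Alternatives were other pseudocounts, filters, scalings, sample sets, no trend, a replicate block, each library left out and a 1.5-fold minimum. Python 3.11.15 with pandas 2.3.3 and matplotlib 3.10.9 made tables and figures. Results for some genes that met the naming rule, and one gene list, are not reported here.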

Additional observations from a re-analysis of the deposited data

How the results depend on the processing

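Against 1145 calls between K262Q and WT as reported, a separate fit with no filter on low values gave 353, and a 1.5-fold minimum left 142. With each library left out in turn the count ran from 29 without K262Q replicate 2 to 1597 without KO replicate 2. The share higher in K262Q ran from 49.0% to 77.4% in these fits. That share was 67.8% as reported, 56.4% with TMM scaling, 43.4% with upper-quartile scaling, 38.9% and 35.7% with scaling to the total of loci of at least 200 nt and of genes spanning at least 200 nt (the latter chosen after seeing the data), and 33.1% with the 1.5-fold minimum. By design, the no-filter fit adjusts over more genes and a left-out library leaves fewer samples. The cause of these changes, among them the higher count without KO replicate 2, was not tested. The replicate block gave 789 calls and 0.12 for Cd274; deviations of same-numbered K262Q and WT samples correlated by 0.028 to 0.078, so the numbers were not taken as a pairing. Cd274 kept its direction and stayed uncalled in every setting. Of 136 named genes other than Cd274, 0 changed direction in any setting. All were called genes whose K262Q and WT values did not overlap, so leaving out a library could not reverse them. The block lost the calls of 26 named genes, no filter those of 67, and leaving out K262Q replicate 2 those of 121. At 2000 nt and 1 FPKM the counting SD of about 16.0% limits genes of low level.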

Other observations

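Of 24 genes of the endocytosis, trafficking and nuclear import of Pd-l1, 3 rose and 1 fell (6.35% and 3.02% of all tested genes), with a median of 0.13 that was 0.04 after scaling to genes spanning at least 200 nt. Stub1, a ubiquitin ligase that acts on misfolded proteins, rose by 0.28 (limma, adjusted p = 0.016), the importin Kpnb1 by 0.22 and the oligosaccharyltransferase subunit Stt3b by 0.20, and the glycosyltransferase B3gnt3 fell by 0.19. Of 20 lysine acetylases and deacetylases, the acetylase Kat2a rose by 0.23 and the mitochondrial deacetylase Sirt3 fell by 0.47; the median was -0.05. Of 26 lysosome and autophagy genes, 3 fell and 0 rose: Atg12 by 0.41, the phosphoinositide-binding Wipi1 by 0.29 and the transcription factor Tfe3 by 0.44.

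Lipid genes beyond sterols moved in both directions, where 6.35% of all tested genes rose and 3.02% fell. Of 18 fatty acid synthesis genes 3 rose, namely the elongase Elovl1 by 0.26, fatty acid synthase (Fasn) by 0.48 and Elovl6 by 0.45, and the desaturase Fads3 fell by 0.35, beside the fall of Plin2 given above. Tigit, a receptor of lymphocytes, was listed at 9.78 to 11.3 FPKM in WT against 6.998 to 8.48 FPKM in K262Q (adjusted p = 0.0389), in cells where the T cell gene Cd3e was at most 0.158 FPKM; which transcript gives these values was not examined.

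Calls were spread over the genome: the share called ran from 7.4% on chromosome 9 to 12.6% on chromosome 19, and the median difference per chromosome from 0.01 to 0.054. Some models without a gene name of their own stood apart in 1 line. The 70 nt small nucleolar RNA model Gm22980 (chromosome 4, 117154093 to 117154162) was listed at 147.8, 151.4 and 151.4 FPKM in K262Q and at 0 in the other 6 libraries. Gm17067 (chromosome 7) measured 17.4, 14.2 and 11.6 FPKM in WT, 1.96, 2.34 and 2.24 FPKM in K262Q and 1.55 to 2.18 FPKM in KO. The differences were 7.24 for Gm22980 and -2.26 for Gm17067. Both models are among the genes called in each of the 9 fits that leave out 1 library. These models were chosen after their values were seen, and no explanation for them was tested.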
